A study of Mus musculus with 17 samples.

Results

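The 8 genes described here make, carry, sense and destroy retinoic acid, the active form of vitamin A. They were taken by gene symbol (Stra6, Dhrs3, Aldh1a1, Aldh1a2, Aldh1a3, Crabp2, Rarb and Cyp26b1) from a raw count table of 45777 genes, and all 8 were found. All 8 were also among the 22052 genes that passed the filter on low counts and were tested. The list was chosen by the role of its genes and by a measured value, the low Cyp26b1 level in irradiated lungs at 2 weeks, which was already known, so the 2-week values of that gene, and every contrast that includes them, are given as a description without a test.

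RNA was sequenced from the left lung of male wild-type C57BL/6 mice, 6 weeks old on arrival and acclimatised for 1 week, whose left lung received a single fraction of 65 Gy or 75 Gy from an image-guided small-animal irradiator or no radiation. The study's methods say that RNA of irradiated lungs came from the lesions, so control and irradiated libraries can also differ in the site sampled. Lungs were collected after 2 weeks, the inflammation stage, or 6 weeks, the fibrosis stage. There were 3 libraries each of non-irradiated control, 65 Gy-irradiated and 75 Gy-irradiated lung at 2 weeks, and 3 control, 2 libraries at 65 Gy and 3 at 75 Gy at 6 weeks, and both doses share the control libraries of their week. The labels do not say which libraries came from which animals, so the p-values measure the spread between these 17 samples. The libraries held 46764569 to 66797879 counted reads each (median 57608149). The 6 alveolar type 2 markers summed to 21897 to 41063 CPM and the 6 alveolar type 1 markers to 2733 to 5581 CPM, none absent, as lung tissue should have. Levels are given as CPM, reads per 1000000 with library sizes scaled by the trimmed mean of M-values (TMM), where 1 CPM was at least 46.7 reads. A gene was called a DEG in a comparison when its edgeR quasi-likelihood p, adjusted by Benjamini-Hochberg over all genes tested, was at most 0.05 and its |Log2FC| was at least 1.

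Cells take up retinol through the STRA6 receptor, dehydrogenases turn it into retinal and DHRS3 turns retinal back into retinol, and the ALDH1A enzymes then oxidise retinal irreversibly to retinoic acid. CRABP2 carries retinoic acid to the nuclear receptors, of which RARB is one that retinoic acid itself induces, and CYP26 enzymes such as CYP26B1 hydroxylate retinoic acid and so end its action. In the lung this pathway is known for its part in septation of the alveoli and in upkeep of the airway epithelium, and lipid-storing fibroblasts hold a reserve of retinyl esters.

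Retinoic acid receptors bind as dimers to direct repeats of a hexamer, and these are printed because they show which members hold these letters near a start site. Windows of 300 bases around RefSeq start sites (250 before and 50 after, GRCm38.p6) were searched on both strands for the hexamer NGNTCA, with A or G as its first letter and G or T before TCA, alone or repeated with a gap of 1, 2 or 5 bases (DR1, DR2 and DR5, whose hexamers also count as single ones). For 6 of the 8 members the table held 12 such windows (all but Aldh1a3 and Crabp2), and 1 member, Rarb, held a direct repeat. The Rarb window (chr14:16575427-16575726) lies inside the RefSeq span of this minus-strand gene, and the end of the span where it begins, at 17082331, was not searched. The Rarb match was a DR5 lying 53 to 37 bases before the start site of that window, on the strand of the gene. It is shown with its hexamers in capitals beside the matches found in the windows of 43 of 61 other retinoid genes. Those were in Cyp26a1, the sister enzyme of Cyp26b1, and in Bco1, which cleaves carotene.
Rarb (DR5, chr14:16575507-16575535, GRCm38.p6, minus strand): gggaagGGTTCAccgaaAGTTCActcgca
Cyp26a1 (DR5, chr19:37697770-37697798, GRCm38.p6, plus strand, repeat read on the minus strand): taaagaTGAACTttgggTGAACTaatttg
Bco1 (DR1, chr8:117095803-117095827, GRCm38.p6, plus strand, repeat read on the minus strand): gggaacTGACCTtTGACCTaacaca
Among all 32851 windows of this length, 0.0974% held a DR5, 0.268% a DR2 and 0.222% a DR1, whereas 43.7% held a single hexamer. The windows of Cyp26b1 held none of these repeats, which says only that the letters are not in that stretch.

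The 8 members differed widely in level. Per kilobase of exon sequence, Aldh1a1 was the most abundant in every group, with group means of 152 to 227 CPM per kb. Dhrs3 followed at 33.5 to 46.1 CPM per kb, and Cyp26b1 ranged from 2.07 to 27.2 CPM per kb. Aldh1a2 (2.31 to 6.42) and Rarb (1.06 to 1.81) were lower on the same CPM per kb scale, and Aldh1a3 (0.240 to 0.445), Stra6 (0.0181 to 0.102) and Crabp2 (0.0249 to 0.129) were the lowest. Each fold change below compares a gene with itself and uses CPM without the length.

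**Figure D1:**
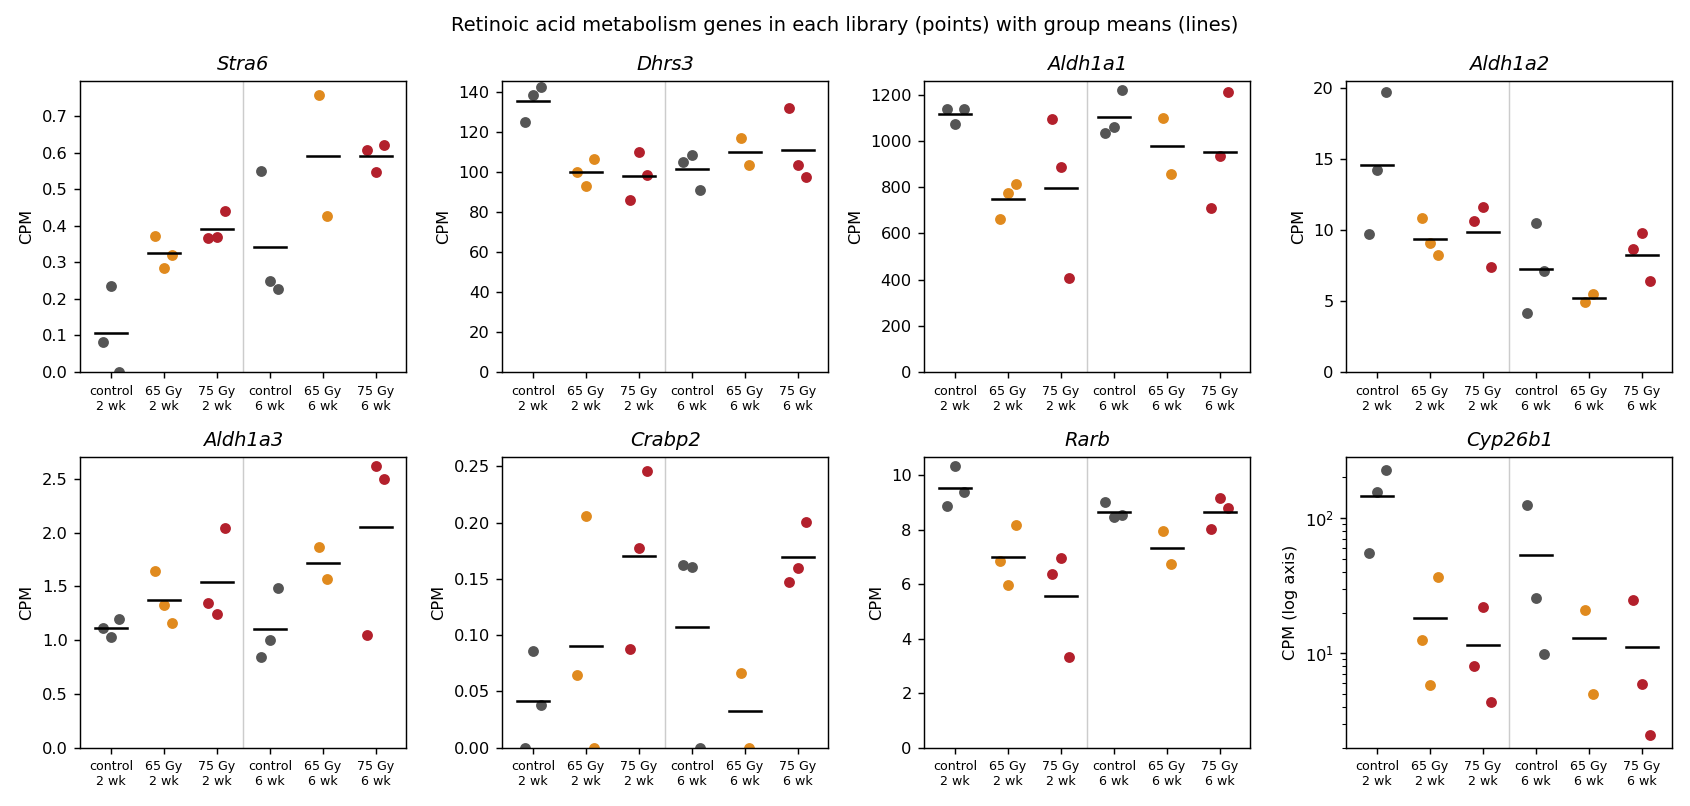
CPM of each of the 8 genes in the 17 libraries (points) by dose and week, with the group mean as a line; axes are linear from 0 except for Cyp26b1, whose axis is logarithmic. Cyp26b1 spans 2.50 to 227 CPM, whereas Dhrs3 spans 85.9 to 142 CPM. The low Cyp26b1 values of irradiated lungs at 2 weeks chose the gene, and at 6 weeks both doses overlap its controls.

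Cyp26b1 (chr6:84571414-84593908, GRCm38.p6), the enzyme that breaks retinoic acid down, had the largest difference between irradiated and control lungs among the 8 genes at 2 weeks. Control libraries at 2 weeks held 55.4, 154.8 and 227.0 CPM. At 65 Gy they held 12.5, 5.85 and 36.7 CPM, and at 75 Gy 7.98, 21.8 and 4.38 CPM. Every irradiated library of that week was below every control, and the group means stood at 12.6% of the control mean at 65 Gy and 7.82% at 75 Gy. The Log2FC was -2.99 (SE 1.05, n = 3 and 3) at 65 Gy and -3.67 (SE 1.08, n = 3 and 3) at 75 Gy, the contrast whose value was known when the list was made.

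At 6 weeks, in libraries that the choice of the gene did not use, the Cyp26b1 controls held 125.5, 25.6 and 9.84 CPM. The 65 Gy libraries held 20.8 and 5.02 CPM, and the 75 Gy libraries held 24.8, 5.93 and 2.50 CPM. The groups overlapped, since the lowest control was below the highest library of each dose. The Log2FC was -2.05 (SE 1.19, edgeR adjusted p = 0.269) at 65 Gy and -2.27 (SE 1.03, adjusted p = 0.0973) at 75 Gy, and neither passed the threshold. Without 75 Gy library 3141, the highest of its group, the 75 Gy value was -3.67 with adjusted p = 0.0304, and without control library 3135, the highest control, it was -0.68, and the 65 Gy value was -0.45.

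The spread of Cyp26b1 within groups set it apart from the other members. Its within-group SD was 1.44 on the log2 scale, larger than that of 99.3% of the genes tested, whose median was 0.241. The highest library of a group was 4.10 times (control, 2 weeks) to 12.8 times (control, 6 weeks) the lowest. Crabp2 had an SD of 1.03 at a level near 0, and Dhrs3, at 0.155, varied less than most genes.

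Across the 17 libraries, the genes whose log2 level followed Cyp26b1 most closely among 14478 genes of sufficient level were Pik3c2b (Pearson r = 0.893), which encodes a phosphoinositide kinase, Rarg (r = 0.871), a nuclear retinoic acid receptor, and Adra1a (r = 0.865), an adrenergic receptor. These values describe shared variation over libraries that also share their group. They include the 2-week values that chose Cyp26b1, and genes are not independent. Rarg (other retinoid receptor) is named here because it followed Cyp26b1 over these libraries, so its changes are given as a description. It ranged from 48.3 to 105 CPM. Its Log2FC was -0.46 at 75 Gy and 2 weeks and -0.41 at 75 Gy and 6 weeks, both inside the fold limit. Among the members, Dhrs3 followed Cyp26b1 with r = 0.757 over the 17 libraries and 0.804 for deviations from the group means. Aldh1a3 ran the other way, with r = -0.75 over libraries and -0.67 for the deviations.

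**Figure D2:**
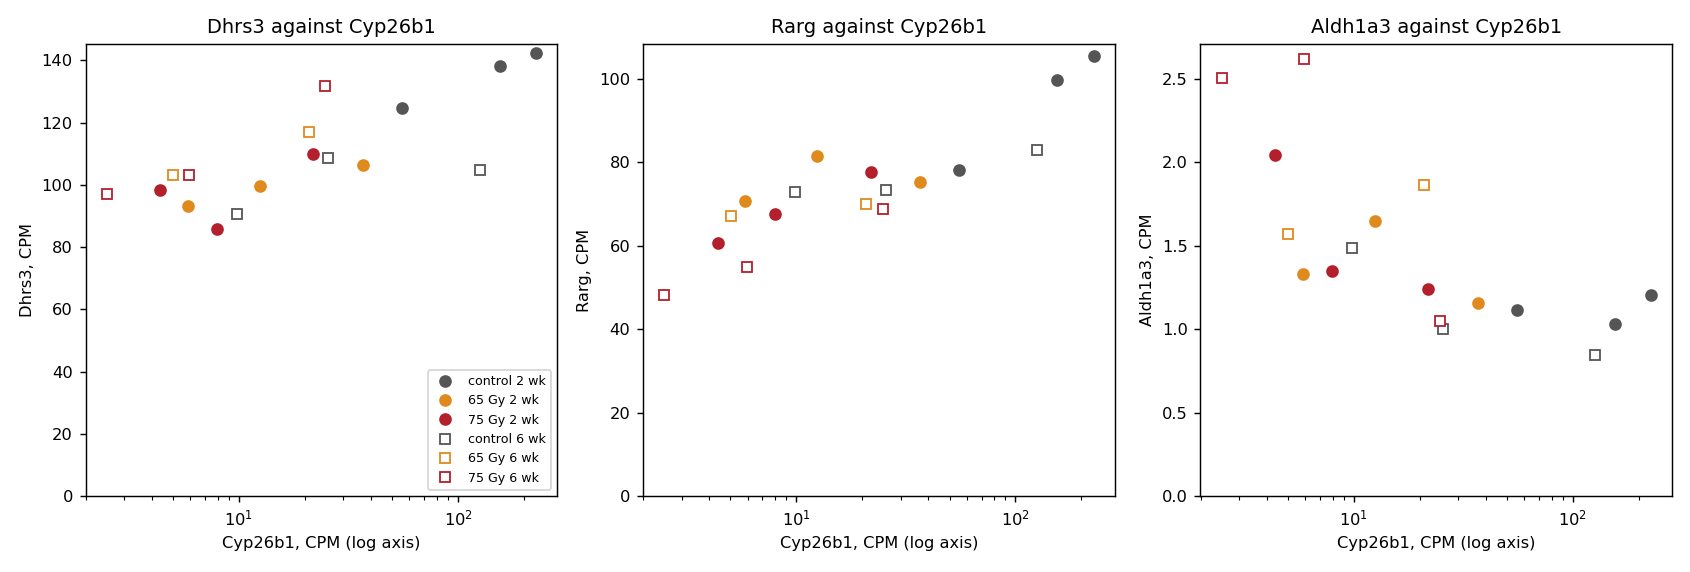
Dhrs3, Rarg and Aldh1a3 in CPM (vertical, linear from 0) against Cyp26b1 in CPM (horizontal, log axis), 1 point per library, filled circles for 2 weeks and open squares for 6 weeks. Dhrs3 and Rarg were higher where Cyp26b1 was higher (r = 0.757 and 0.871 on log2 levels, 17 libraries) and Aldh1a3 was lower (r = -0.75). The 2-week values that chose Cyp26b1 are included.

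Dhrs3 (chr4:144892534-144928209), the retinal reductase, was lower in irradiated lungs at 2 weeks and overlapped with the controls at 6 weeks. Controls at 2 weeks held 124.6, 138.2 and 142.4 CPM, 65 Gy libraries 99.7, 93.1 and 106.3 CPM, and 75 Gy libraries 85.9, 109.8 and 98.5 CPM. All 6 irradiated libraries were below all 3 controls. The Log2FC was -0.44 (SE 0.12, edgeR adjusted p = 0.0324) at 65 Gy and -0.46 (SE 0.12, adjusted p = 0.0136) at 75 Gy, past the p limit but inside the fold limit, so Dhrs3 was not a DEG. Leaving out 1 library took the adjusted p as high as 0.109 at 65 Gy (without 65 Gy library 3130) and 0.0507 at 75 Gy (without control library 3128).

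At 6 weeks the Dhrs3 controls held 104.7, 108.5 and 90.7 CPM, the 65 Gy libraries 117.0 and 103.2 CPM, and the 75 Gy libraries 131.8, 103.2 and 97.2 CPM. These groups overlapped, and the Log2FC was 0.12 (SE 0.14, adjusted p = 0.606) and 0.13 (SE 0.12, adjusted p = 0.436). The irradiation effect at 6 weeks minus that at 2 weeks, with doses averaged, was 0.57 (SE 0.15) and did not pass after adjustment (edgeR adjusted p = 0.14). Between the control groups, the 6-week level was below the 2-week level by a Log2FC of -0.41 (SE 0.12, adjusted p = 0.114), with no overlap. The RefSeq span of Dhrs3 lies within that of Vps13d (3625 to 7081 reads), and whether counting used strand was not stated.

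Stra6 (chr9:58063793-58154004), the retinol uptake receptor, was scarce, with 0 to 46 reads a library. At 2 weeks the controls held 4, 11 and 0 reads (0.0812, 0.236 and 0 CPM, where 3 reads, the limit that a count of 0 allows, would be 0.0572 CPM). The 65 Gy libraries held 23, 18 and 18 reads (0.371, 0.285 and 0.321 CPM) and the 75 Gy libraries 21, 25 and 25 reads (0.368, 0.369 and 0.440 CPM). All irradiated libraries were above all controls of that week. Stra6 was called at 75 Gy, with a Log2FC of 1.91 (SE 0.64, edgeR adjusted p = 0.0450), and not at 65 Gy, where it was 1.64 (SE 0.65, adjusted p = 0.122).

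That call was narrow. It was lost in 14 of the 17 fits that left out 1 library, where its adjusted p reached 0.102, and the value ran from 1.31 without control library 3128 to 3.24 without control library 3127. It was kept without control libraries 3127, 3135 or 3137. At 6 weeks the controls held 0.551, 0.250 and 0.227 CPM, the 65 Gy libraries 0.759 and 0.427 CPM and the 75 Gy libraries 0.607, 0.548 and 0.621 CPM, with Log2FC of 0.78 (SE 0.60, adjusted p = 0.420) and 0.78 (SE 0.55, adjusted p = 0.284). These groups overlapped. With doses and weeks averaged, Stra6 was higher in irradiated lungs, with a Log2FC of 1.28 (SE 0.39, adjusted p = 0.0157), and without control library 3128 this was 0.98, inside the fold limit. In RefSeq, Stra6 overlaps the gene Ccdc33 over 55031 bases, and Ccdc33 had 315 to 1240 reads, so a small share of those reads would weigh on Stra6 if strand was not used.

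Among the 3 retinal dehydrogenases, Aldh1a1 (chr19:20492583-20643463) carried nearly all of the reads. Its controls held 1140, 1075 and 1140 CPM at 2 weeks and 1035, 1061 and 1219 CPM at 6 weeks. At 2 weeks the 65 Gy libraries held 663, 773 and 813 CPM and the 75 Gy libraries 1097, 889 and 405 CPM. At 6 weeks the values were 1099 and 858 CPM at 65 Gy and 711, 934 and 1214 CPM at 75 Gy. Of the 11 irradiated libraries, 8 were below the lowest control, yet no comparison passed the threshold, with Log2FC of -0.58 (SE 0.27, adjusted p = 0.186) and -0.49 (SE 0.26, adjusted p = 0.205) at 2 weeks and -0.17 (adjusted p = 0.747) and -0.21 (adjusted p = 0.560) at 6 weeks.

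Aldh1a1 followed the club cell markers most closely of the marker lists. Its log2 level followed the summed level of 4 club cell markers (Scgb1a1, Scgb3a2, Cyp2f2 and Aldh3a1) with r = 0.868 over 17 libraries and 0.900 for deviations from group means, and the genes most like it were Gsta3 (r = 0.955), Pir (r = 0.919) and Cyp39a1 (r = 0.913). The club cell sum was 16466 to 20437 CPM in the 6 controls and 6239 to 13689 CPM in the 11 irradiated libraries, lowest in 75 Gy library 3134, which was also lowest for Aldh1a1, and 1 of the 4 markers was called lower at 75 Gy and 6 weeks and 0 in the other dose comparisons. The correlation was not particular to club cells. For deviations r was also 0.753 with general capillary, 0.706 with ciliated cell and 0.685 with erythroid markers, and -0.702 with T cell markers. The part of these cell types in the Aldh1a1 values was not tested. In bulk lung fewer cells of a type and less RNA per cell cannot be told apart. Aldh1a7, a close relative in sequence whose reads the counting could have split with Aldh1a1, held 78.6 to 167 CPM and had a Log2FC of -0.35 at each dose at 2 weeks (adjusted p = 0.244 and 0.178).

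Aldh1a2 (chr9:71215789-71296243), the dehydrogenase of mesothelium and mesenchyme, passed in no comparison by edgeR and had its widest difference between the control groups of the 2 weeks. The controls held 9.72, 14.2 and 19.7 CPM at 2 weeks and 4.14, 10.5 and 7.14 CPM at 6 weeks. Irradiated libraries lay between 4.93 and 11.6 CPM, inside the range of the controls of both weeks together. Against the lowest control of their own week, 2 of 3 libraries at 65 Gy and 1 of 3 at 75 Gy were lower at 2 weeks. At 6 weeks 0 libraries were lower at either dose. The 4 dose comparisons gave Log2FC of -0.63, -0.56, -0.47 and 0.19 (adjusted p of 0.199, 0.198, 0.388 and 0.658, in the order 65 Gy and 75 Gy at 2 weeks, then at 6 weeks). Controls at 6 weeks against 2 weeks gave -1.004 (SE 0.30, edgeR adjusted p = 0.121). Its level followed the sum of 6 mesothelium markers (r = 0.829, and 0.845 for deviations), among them Msln (r = 0.912), the gene most like it of 14478. The mesothelium sum was 176 to 241 CPM in the 2-week controls, 102 to 188 CPM in the 6-week controls and 73.1 to 151 CPM in irradiated lungs, 3 of the 6 were called lower at 65 Gy and 6 weeks and 0 in the other dose comparisons, and its part in the Aldh1a2 values was not tested.

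Aldh1a3 (chr7:66390892-66427477), the last enzyme of this kind, had higher values in irradiated lungs at 6 weeks. Controls of that week held 0.843, 0.998 and 1.48 CPM, the 65 Gy libraries 1.86 and 1.57 CPM, and the 75 Gy libraries 1.05, 2.62 and 2.50 CPM. Both 65 Gy libraries were above all controls, and at 75 Gy library 3141 fell among the controls. The Log2FC at 75 Gy was 0.89 (SE 0.32, edgeR adjusted p = 0.0410), past the p limit and inside the fold limit, and at 65 Gy it was 0.63 (SE 0.35, adjusted p = 0.251). Without control library 3137 the 75 Gy value was 1.16, and without 75 Gy library 3141 it was 1.20, and Aldh1a3 was called in both fits, whereas its adjusted p rose to 0.158 when another library was left out. At 2 weeks controls held 1.12, 1.03 and 1.20 CPM against 1.65, 1.33 and 1.16 CPM at 65 Gy and 1.35, 1.24 and 2.04 CPM at 75 Gy, with Log2FC of 0.31 (adjusted p = 0.614) and 0.46 (adjusted p = 0.332). With doses and weeks averaged the value was 0.57 (SE 0.20, adjusted p = 0.0346).

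Crabp2 (chr3:87948693-87953372), the carrier of retinoic acid, was close to undetected, with 0 to 14 reads a library. It had 0 reads in 1 library each of the 2-week controls, the 2-week 65 Gy group, the 6-week controls and the 6-week 65 Gy group, where 3 reads would be 0.0512 to 0.0609 CPM. The 3 libraries at 75 Gy held 5, 12 and 14 reads at 2 weeks and 9, 9 and 11 reads at 6 weeks. The 2-week 75 Gy libraries were all above their controls (0, 4 and 2 reads), and the Log2FC was 2.01 with an SE of 1.21 (adjusted p = 0.257). No difference in Crabp2 was detectable at this depth.

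Rarb (chr14:16430839-17082331), the receptor with the direct repeat shown near a start site inside its span, was lower at 75 Gy and 2 weeks. Controls held 8.87, 10.3 and 9.38 CPM, 65 Gy libraries 6.86, 5.98 and 8.16 CPM, and 75 Gy libraries 6.37, 6.96 and 3.34 CPM. Every irradiated library was below every control of that week. At 75 Gy the Log2FC was -0.77 (SE 0.20, edgeR adjusted p = 0.0130), inside the fold limit, and without 75 Gy library 3134, the lowest, it was -0.51 (the adjusted p stayed at most 0.0487 whichever library was left out, and was 0.138 when only those groups were fitted). At 65 Gy it was -0.44 (SE 0.20, adjusted p = 0.180).

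At 6 weeks Rarb stood at 9.001, 8.45 and 8.52 CPM in controls, 7.93 and 6.72 CPM at 65 Gy and 8.01, 9.16 and 8.78 CPM at 75 Gy. The 75 Gy libraries overlapped the controls and both 65 Gy libraries were below them, with Log2FC of 0.00 (95% interval -0.43 to 0.43) and -0.24 (SE 0.23, adjusted p = 0.524). The change of the irradiation effect from 2 to 6 weeks was 0.49 (SE 0.25, adjusted p = 0.365). Rarb followed Aldh1a1 (r = 0.814 over 17 libraries, 0.802 for deviations), and, among the marker lists, club cells (r = 0.744 over libraries, 0.695 for deviations) and general capillary cells (r = 0.599 over libraries, 0.787 for deviations). The sum of 6 general capillary markers was 2761 to 3260 CPM in controls and 740.4 to 1847 CPM in irradiated libraries, with 2, 4, 1 and 3 of the 6 called lower (65 Gy and 75 Gy at 2 weeks, then at 6 weeks), and its part in the Rarb values was not tested.

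**Figure D3:**
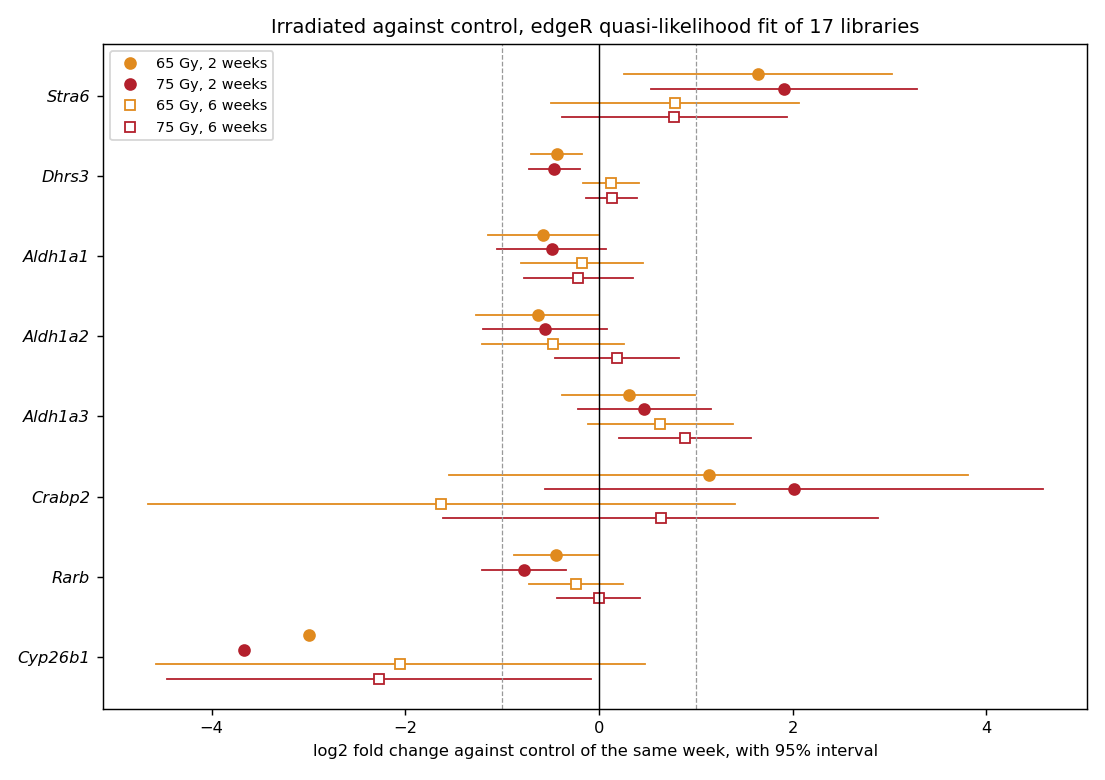
Log2FC of the 8 genes against the control of the same week, for both doses at 2 weeks (circles) and 6 weeks (squares), with 95% intervals from the edgeR fit; dashed lines mark the fold limit and Cyp26b1 at 2 weeks is drawn without an interval because its fall was known when the list was made. At 2 weeks Cyp26b1 (-2.99 and -3.67) lies far to the left, Stra6 (1.64 and 1.91) to the right, and the intervals of Dhrs3 lie below 0 at 2 weeks and cross it at 6 weeks.

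Counted over the 7 members other than Cyp26b1, 0 were DEGs at 65 Gy and 2 weeks, where 4.35% of all genes tested were. At 75 Gy and 2 weeks 1 of the 7 was called, Stra6, which was higher, against 7.74% of all genes (5.67% up and 2.07% down). At 6 weeks, where the Cyp26b1 values are tested too, 0 of 8 were called at 65 Gy (5.28% of all genes) and 0 of 8 at 75 Gy (10.4%). By adjusted p alone, 1 of the 7 passed at 65 Gy and 2 weeks (Dhrs3, beside 11% of all genes) and 3 at 75 Gy and 2 weeks (Stra6, Dhrs3 and Rarb, beside 22.3%). At 6 weeks 0 of 8 passed at 65 Gy (14.7%) and 1 at 75 Gy (Aldh1a3, beside 36%). With doses and weeks averaged 1 of the 7 was called, again Stra6 (8.48% of all genes), and 3 passed by adjusted p alone (Stra6, Aldh1a3 and Rarb, beside 41.6%). The libraries did not overlap with the controls for 4 of the 7 at 65 Gy and 5 at 75 Gy at 2 weeks, where this held for 29.4% and 30.2% of all genes, and at 6 weeks for 2 of 8 members at 65 Gy (56.3%) and 0 at 75 Gy (57.1%). The median Log2FC of the 7 was -0.44 and -0.46 at 65 Gy and 75 Gy at 2 weeks, and that of the 8 was -0.21 and 0.16 at 6 weeks, beside medians of -0.01, 0.00, 0.01 and 0.04 over all genes tested.

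The 10 Gy between the doses could be compared directly. With weeks averaged, 0 of the 7 members other than Cyp26b1 and 0 of 22052 genes (0%) were called for 75 Gy against 65 Gy by edgeR, and DESeq2 also called 0, although 2636 genes (12%) had an unadjusted p of at most 0.05. The Log2FC of 75 Gy against 65 Gy was -0.01 for Dhrs3 (95% interval -0.20 to 0.19), -0.05 for Rarb (-0.37 to 0.28) and 0.02 for Aldh1a1 (-0.40 to 0.45). It was 0.37 for Aldh1a2 (-0.12 to 0.85) and 0.21 for Aldh1a3 (-0.30 to 0.71). For Stra6 it was 0.13 (-0.73 to 0.997), with an upper end close to the fold limit. The value of Crabp2 was the largest, at 1.57, and its interval of -0.29 to 3.44 reached past the fold limit (edgeR adjusted p = 0.47). For Cyp26b1 it was -0.45, a description that includes its 2-week values. Between control groups, 0 of the 7 were called at 6 weeks against 2 weeks (0.576% of all genes), 1 did not overlap (Dhrs3, beside 23.6% of all genes), and 0 of the 7 were called for a difference in the irradiation effect between the weeks (0.181%).

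The other genes of the pathway were read from a list of 61, of which 52 could be tested. At 65 Gy and 2 weeks 2 were called higher and 3 lower, where 3.47% and 0.88% of all genes were. At 75 Gy and 2 weeks 2 were called higher and 1 lower (5.67% and 2.07%). At 65 Gy and 6 weeks 2 were called higher and 0 lower (4.34% and 0.943%), and at 75 Gy and 6 weeks 4 higher and 0 lower (7.28% and 3.13%). The median Log2FC of the 52 was -0.18, -0.20, -0.14 and -0.17 in that order.

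Among genes of retinol uptake, Stra6l, a relative of Stra6 that takes up retinol from its plasma carrier, rose in all 4 dose comparisons. Its controls held 0.384 to 0.896 CPM over both weeks, and its irradiated libraries 7.74 to 23.8 CPM, with no overlap. The Log2FC was 4.08 (SE 0.39) and 4.60 (SE 0.40) at 65 Gy and 75 Gy at 2 weeks, and 4.49 (SE 0.41) and 4.61 (SE 0.40) at 6 weeks, with edgeR adjusted p of 2.1e-05 or less, and Stra6l was called in all 17 fits that left out 1 library. Rbp7, a cellular retinol-binding protein, fell at 65 Gy and 2 weeks (-1.97, SE 0.59, adjusted p = 0.0447), a call lost in 14 of those 17 fits. At 75 Gy and 2 weeks Rbp7 was not called, and its libraries (0.528 to 4.92 CPM) overlapped the controls (3.06 to 5.20 CPM). Its controls averaged 4.04 CPM at 2 weeks and 1.57 CPM at 6 weeks. Rbp2, another such protein, rose at 75 Gy and 6 weeks from 0.221 to 0.956 CPM on average (2.11, SE 0.60, adjusted p = 0.0129). Its libraries overlapped, and the call was lost without control library 3135 (1.79) or 75 Gy library 3143 (1.69).

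In storage and cleavage, Lrat, which esterifies retinol for storage, fell at 2 weeks. Controls held 101, 117 and 131 CPM, 65 Gy libraries 21.8, 30.6 and 44.6 CPM, and 75 Gy libraries 35.97, 56.2 and 8.93 CPM. The Log2FC was -1.85 (SE 0.55, adjusted p = 0.0430) and -1.79 (SE 0.55, adjusted p = 0.0287), a call lost in 10 and 4 of the 17 fits that left out 1 library (at 75 Gy -1.34 without library 3134), and at 6 weeks it was -1.14 (SE 0.62, adjusted p = 0.235) and -0.89 (SE 0.53, adjusted p = 0.211). Lrat is a gene of the lipid-storing fibroblasts. The sum of 6 markers of alveolar and lipid-storing fibroblasts was 2580 to 3504 CPM in the 6 controls and 1333 to 2409 CPM in irradiated lungs. In the dose comparisons 0 of the 6 were called and 0 had a Log2FC above 0. By adjusted p alone 1, 5, 3 and 5 of the 6 passed (65 Gy and 75 Gy at 2 weeks, then at 6 weeks), beside 11%, 22.3%, 14.7% and 36% of all genes. The part of these cells in the Lrat values was not tested. Bco2, which cleaves carotenoids, rose at 75 Gy and 6 weeks (1.01, SE 0.24, adjusted p = 0.00454), and was under the fold limit without control library 3136 (0.79) or 75 Gy library 3143 (0.92).

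Among the carriers, Fabp5, which can deliver retinoic acid to receptors other than RAR, rose in all 4 comparisons. Its controls held 75.8 to 123 CPM and its irradiated libraries 178 to 406 CPM. The Log2FC was 1.30, 1.74, 1.28 and 1.39 (SE 0.13 to 0.14, adjusted p of 4.29e-05 or less) in the order 65 Gy and 75 Gy at 2 weeks, then at 6 weeks. Crabp1, the relative of Crabp2, held 0.171 to 1.96 CPM and passed in none of these, with Log2FC of 0.24, 1.14, 1.09 and 1.35 (lowest adjusted p = 0.0968).

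Of the nuclear receptors and their cofactors, 0 of 13 tested were called in any dose comparison, where 4.35%, 7.74%, 5.28% and 10.4% of all genes were (65 Gy and 75 Gy at 2 weeks, then at 6 weeks). At 75 Gy and 6 weeks all 8 cofactors passed the adjusted p limit alone, which 36% of all genes did, with lower levels and a median Log2FC of -0.69. Among them were Ncor1, a corepressor (-0.75, adjusted p = 0.000351), and Crebbp, a histone acetyltransferase (-0.84, adjusted p = 0.000596). Rara, a broadly expressed receptor, had a Log2FC of -0.73 (adjusted p = 0.00147) in the same comparison. None of the 8 cofactors passed by adjusted p at 65 Gy and 6 weeks, where 14.7% of all genes did, and their median there was -0.37. That group had 2 libraries. For 75 Gy against 65 Gy with weeks averaged, 0 of the 8 and 0 of all genes passed, and the median of the 8 was -0.24. In controls all 8 were higher at 6 weeks than at 2 weeks (median Log2FC 0.17). There 0 of the 8 passed by adjusted p, beside 359 of 22052 genes.

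Of 10 tested genes known to respond to retinoic acid, 1 was called in a dose comparison. Hoxa5, a homeobox gene of lung patterning, fell at 65 Gy and 2 weeks, where 4.35% of all genes were called, from 34.6, 36.9 and 44.5 CPM in controls to 20.2, 18.3 and 19.0 CPM (Log2FC -1.01, SE 0.16, adjusted p = 0.001), and was inside the fold limit without control library 3128 (-0.90) or 65 Gy library 3130 (-0.98). It was also lower at 75 Gy at 2 weeks (-0.83, adjusted p = 0.00204) and 6 weeks (-0.67, adjusted p = 0.0046), inside the fold limit. Gprc5a, a retinoic acid-induced receptor of the airway and alveolar epithelium, had Log2FC of -0.22, -0.36, -0.42 and -0.51 (adjusted p of 0.149, 0.0114, 0.0156 and 0.000773, in the order 65 Gy and 75 Gy at 2 weeks, then 6 weeks). By adjusted p alone 3, 6, 2 and 6 of the 10 passed in that order, beside 11%, 22.3%, 14.7% and 36% of all genes. The median over the 10 genes was -0.46, -0.34, -0.25 and -0.35.

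**Figure D4:**
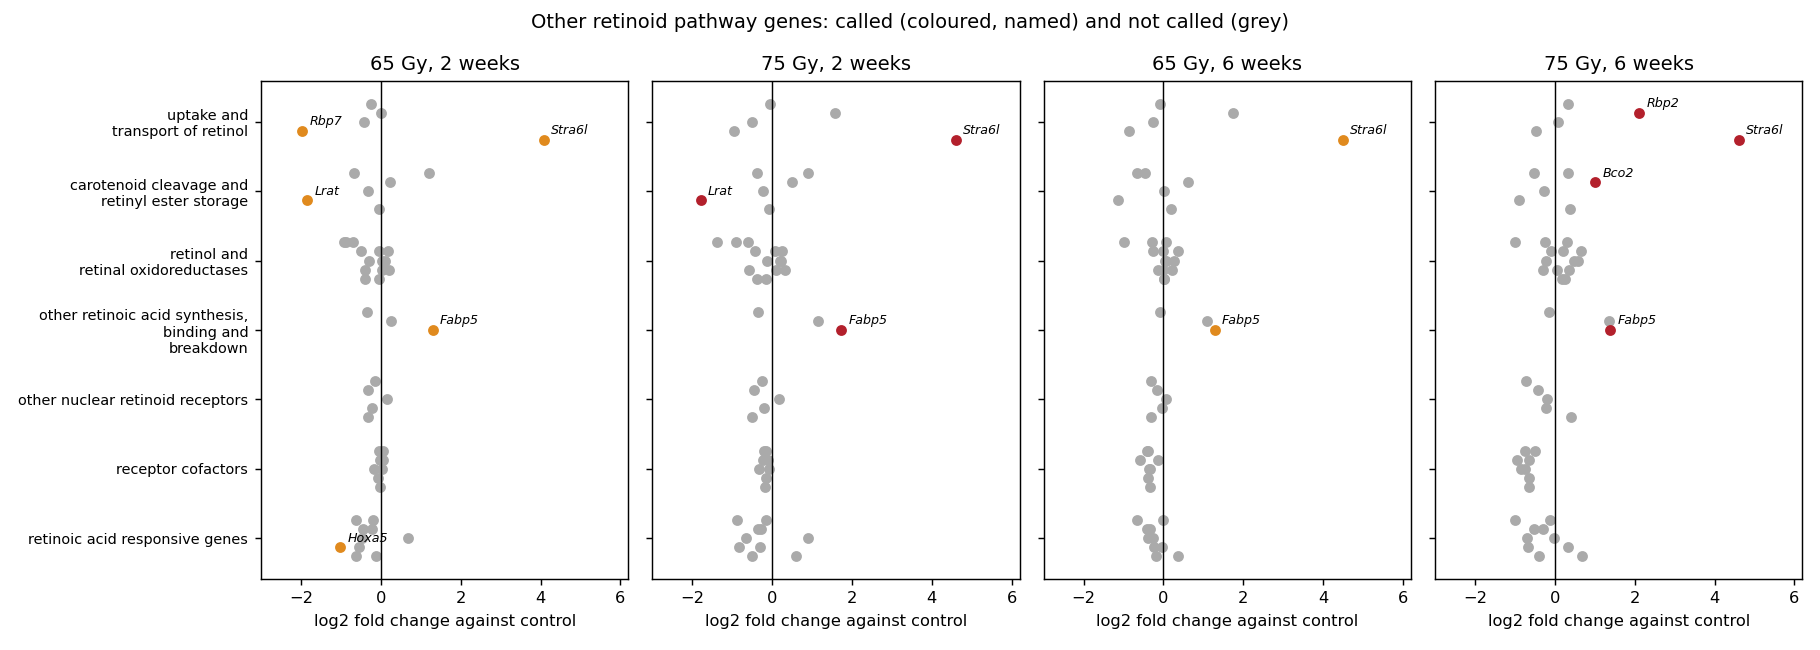
Log2FC against control of the other retinoid pathway genes tested, by role (rows), for each dose and week (panels), with called genes coloured and named and the others grey; Cyp26a1, with at most 0.244 CPM and no reads in several libraries, is not drawn. Stra6l (4.08 to 4.61) and Fabp5 (1.28 to 1.74) stand to the right in all panels, and Lrat (-1.85 and -1.79) to the left at 2 weeks.

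Summed markers of several other cell types of the lung differed between irradiated and control libraries. The summed markers of arterial and venous endothelium were 1136 to 1548 CPM in the 6 controls and 441 to 905 CPM in irradiated lungs. Of the 6 markers, 2, 2, 1 and 4 were called lower in the order 65 Gy and 75 Gy at 2 weeks, then at 6 weeks. Cyp26b1 was correlated with this sum at r = 0.767 over libraries and 0.514 for deviations. The correlation was not particular to that list. Over libraries, r was 0.745 with alveolar and lipid-storing fibroblast markers, 0.744 with lymphatic endothelium and 0.724 with general capillary markers. These correlations include the 2-week values that chose Cyp26b1. The part of these cells in the Cyp26b1 values was not tested. The sum of 6 alveolar macrophage markers was 450.0 to 1196 CPM in controls, 705 to 1037 CPM in irradiated lungs at 2 weeks and 1510.0 to 2171 CPM at 6 weeks, with 1, 1, 4 and 4 of the 6 called higher in the same order and 1 called lower at 65 Gy and 2 weeks. The sum of 6 dendritic cell markers was 48.1 to 72.1 CPM in controls and 87.5 to 152 CPM in irradiated lungs, with 2, 3, 4 and 5 called higher. Of all genes 3.47%, 5.67%, 4.34% and 7.28% were called higher and 0.88%, 2.07%, 0.943% and 3.13% lower, in the same order. The same shares apply to the club cell, mesothelium and general capillary marker counts above. Stra6l and Fabp5 were higher in every irradiated library than in every control. The part of macrophages and dendritic cells in their values was not tested. Basal cell markers (Krt5, Trp63, Krt14 and Krt15) summed to 0.893 to 10.7 CPM, near 0 in all groups. No marker of the lists named here was at 0 in all 17 libraries.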

How the data were processed

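Bulk RNA-seq of left lung was available for 17 libraries in 6 groups (dose and week), grouped by GEO's labels. As described in the study's methods, the authors made stranded poly(A) libraries, trimmed reads, mapped them with HISAT2 to GRCm38.p6 and assembled them with StringTie, and they deposited 1 table of raw read counts per gene, a whole number for each of 45777 genes. How counts were drawn from the assembly, and whether strand was used, is not given in the sources used here. The deposited depth was 46764569 to 66797879 counts a library.

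Counts were filtered with filterByExpr (minimum count 10, minimum total 15), scaled by TMM and fitted in 1 edgeR 4.0.16 quasi-likelihood model (R 4.3.3) with a term for each group, over 22052 genes. P-values were adjusted by Benjamini-Hochberg over all of these, with limits of 0.05 and |Log2FC| of 1 as in the study. The members and gene lists were chosen with earlier results of these data known. Pathway genes named for their changes were drawn from those called in at least 1 dose comparison and from the 2 with the smallest p in each list. Aldh1a7 was named as a relative of Aldh1a1. The 3 genes most like a member by Pearson r of log2 CPM were named where they bear on a result. Exon lengths came from GENCODE vM21. The fit was tried on simulated counts with 200 of 22052 genes, drawn from those with a mean above 1 CPM, changed by a fold of 4. It recovered 195 for 75 Gy against control at 2 weeks (6 false calls) and 192 for 65 Gy at 6 weeks (3 false calls). For the change of the irradiation effect it recovered 190 (12 false calls). This trial does not cover genes below that level, such as Stra6 and Crabp2, or smaller changes. Alternatives were RLE factors, other count filters, DESeq2 1.42.0, adjusted p alone, only the groups compared, and leaving out each library. Intervals and limits from a count of 0 cover counting error or sample spread only. Promoter and gene positions came from RefSeq tables of GRCm38.p6.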

Additional observations from a re-analysis of the deposited data

Results flagged for a closer look

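The Dhrs3 change at 65 Gy differed in sign between the weeks. All 3 libraries at 2 weeks lay below the mean of their controls (Log2FC -0.44) and both at 6 weeks lay above theirs (Log2FC 0.12). For 65 Gy alone this difference was not tested. For both doses together the change of the irradiation effect was 0.57 (edgeR adjusted p = 0.14).

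Crabp2 at 6 weeks ran below the control mean in both 65 Gy libraries (Log2FC -1.63) and above it in all 3 at 75 Gy (Log2FC 0.64). The counts behind these values were 0 to 11 reads a library, and the difference was not tested. Controls of that week held 10, 9 and 0 reads, so the library with 0 reads lowered their mean. Of the 3 libraries at 75 Gy, 1 was above the highest control.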

How the results depend on the processing

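No paired analysis was possible because the groups share no replicate number. RLE factors moved no count of calls by over 1.5 times. Of 1427 values of single members under the alternatives, 1360 kept their direction and side of the threshold, 20 lost the call, 13 gained one and 34 changed sign without being called in either fit (largest size 0.46). All 96 mean levels moved by less than their SD. Stra6 and Crabp2 have no value with at least 10 counts in every library, since they do not pass that filter.

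The counts of members below include Cyp26b1, whose 2-week values chose it, so its calls at 2 weeks and with weeks averaged are no test. At 65 Gy and 2 weeks 1 member was called by DESeq2 (Cyp26b1), 1 by adjusted p alone (Dhrs3) and 1 with only the groups compared (Cyp26b1), and leaving out a library gave 0 to 1 (Stra6, without control library 3127). Over all genes, adjusted p alone called 2422. At 75 Gy and 2 weeks the count of members was 1 without the low-count filter (every gene with at least 1 count), 1 with at least 10 counts in every library, 4 by adjusted p alone and 1 with only the groups compared, and 0 (without control library 3128) to 2 when a library was left out. The genes called were 4922 by adjusted p alone, 834 with only the groups compared, and 1097 (without 75 Gy library 3134) to 2053 when a library was left out.

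At 6 weeks adjusted p alone called 3234 genes at 65 Gy and 7935 at 75 Gy with 1 member, leaving out a library gave 604 (without 65 Gy library 3138) to 1275 genes at 65 Gy, and 0 to 2 members at 75 Gy, 2 of them without library 3141 (Aldh1a3 and Cyp26b1). With doses and weeks averaged, at least 10 counts in every library gave 995 genes and 1 member, adjusted p alone 9175 genes and 4 members, and leaving out a library 1 (without control library 3128) to 2 members. For 75 Gy against 65 Gy, 1 gene was called with only the groups compared and 0 to 1 when a library was left out (1 without 65 Gy library 3131). For the controls at 6 weeks against 2 weeks, DESeq2 called 226 genes and 1 member (Aldh1a2), adjusted p alone 359 genes, only the groups compared 32 genes, and leaving out a library 58 (without control library 3135) to 155 genes (without 75 Gy library 3134). For the change of the irradiation effect, DESeq2 called 253 genes, and leaving out a library gave 23 (without control library 3136) to 69 (without 75 Gy library 3134). The cause of these shifts was not tested. Depth limits Stra6 and Crabp2, which had at most 46 and 14 reads a library.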
